A study of Mus musculus with 21 samples.

Results

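The genes described here are 10 transcription factors known from the hair follicle, Sox9, Lhx2, Foxi3, Foxe1, Msx1, Msx2, Hoxc13, Dlx3, Gata3 and Runx1. They were taken by symbol from the deposited count table, which holds 23713 genes, and each of the 10 symbols matched 1 row. Bulk RNA had been sequenced from keratinocytes, the epithelial cells of the epidermis, which were freed from the tail skin of mice with trypsin and dispase. Mice with basal cell carcinoma (BCC), a skin tumour driven by Hedgehog signalling, were compared with control mice (Con) in 3 models. Each model had 4 BCC and 3 Con libraries, which makes 21. Column headers carry a different animal name for each library, and p-values measure only the spread between these libraries.

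SmoM2 mice were taken 29 days after tumour induction, Gnas-eKO mice at 42 days and PKI mice at 57 days, and the matching Con mice carried no tumours. RNA was selected for poly(A), and the library kit keeps strand. SmoM2 is an active form of Smoothened, the membrane protein that passes the Hedgehog signal on. Gnas encodes the stimulatory G protein subunit that activates cAMP synthesis and, through it, protein kinase A. The labels give neither the genotype of the Con mice nor the promoter or Cre that drives each alteration, nor the age or sex of the mice, and they do not say what PKI stands for. Each model is 1 batch (A, B or C in the labels), so model, batch and day cannot be told apart. In the column headers the animal names of SmoM2 BCC begin with other letters (BF) than those of SmoM2 Con (TJ). The labels do not say what these letters stand for. Whatever goes with them cannot be told apart from the tumour in that model.

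Hair follicles grow from epidermal placodes and keep a pool of stem cells in the bulge of the outer root sheath. SOX9 and LHX2 maintain those stem cells and RUNX1 helps to activate them, while FOXI3 acts in the placode and in the cells that renew the follicle. Closer to the hair itself MSX1, MSX2, HOXC13 and DLX3 work in the matrix and the hair shaft, and GATA3 directs the inner root sheath that surrounds the shaft. Tumour cells of BCC resemble cells of the growing follicle, and Hedgehog signalling runs in both.

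For 6 members RefSeq lists a promoter on build GRCm38.p6 (Lhx2, Foxi3, Msx1, Msx2, Gata3 and Runx1, with 8 windows in all). Sox9, Foxe1, Hoxc13 and Dlx3 had no entry. In the 250 bases before the start, none of the 8 windows holds the GLI site GACCACCCA (0.225% of 32851 windows of the table hold it) or the cAMP response element TGACGTCA (1.546%), on either strand. The shorter core CCACCC, contained in the GLI site and searched afterwards, occurs in 28.1% of all windows and in 2 of the 8. The windows of 3 members that rose in SmoM2 BCC are shown because they differ in that core: Lhx2 (chr2:38339031-38339280, plus strand), Gata3 (chr2:9878601-9878850, minus strand, before a transcript start inside the gene's annotated span) and Foxi3 (chr6:70956356-70956530, plus strand, only the 175 bases before the first annotated exon). Capitals mark the core, read here as GGGTGG, with overlapping matches joined.
Lhx2: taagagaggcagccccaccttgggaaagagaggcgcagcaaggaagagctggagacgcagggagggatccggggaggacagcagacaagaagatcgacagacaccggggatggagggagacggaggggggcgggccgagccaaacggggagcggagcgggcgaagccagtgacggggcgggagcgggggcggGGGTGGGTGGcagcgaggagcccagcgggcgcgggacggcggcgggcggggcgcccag
Gata3: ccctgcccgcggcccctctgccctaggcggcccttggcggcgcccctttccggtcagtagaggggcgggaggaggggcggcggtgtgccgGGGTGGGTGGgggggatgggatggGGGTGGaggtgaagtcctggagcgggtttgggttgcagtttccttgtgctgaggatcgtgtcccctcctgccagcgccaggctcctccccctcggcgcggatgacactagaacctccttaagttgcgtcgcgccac
Foxi3: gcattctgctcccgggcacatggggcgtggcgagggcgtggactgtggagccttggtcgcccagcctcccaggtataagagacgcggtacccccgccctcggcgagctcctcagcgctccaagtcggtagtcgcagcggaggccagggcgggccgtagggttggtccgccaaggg
The Lhx2 and Gata3 windows share the run GGGTGGGTGG, made of 2 overlapping matches. Gata3 holds a further match, and Foxi3, whose transcript rose most of the 3, holds none. The other Lhx2 window (chr2:38351058-38351307), not shown, holds none either. A match or its absence in these windows says nothing about binding.

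Library totals were 16645858 to 22251132 counts, and all 10 members passed the filter on low counts in every model. Foxi3 in Gnas-eKO and Foxe1 in PKI passed it through their BCC libraries alone, with fewer than 3 Con libraries over its minimum, which favours a higher call. They are no support for the counts of members called; of the other 9 members edgeR called 6 in PKI, and Foxi3 was the only call in Gnas-eKO. Levels are given as CPM, the usual per-library count unit, on library sizes scaled by TMM, and 3 counts corresponded to at most 0.19 CPM. On the first principal component, 33.8% of the variance, the 9 Con libraries lay between −47.8 and −32.7 and 11 BCC libraries between 23.2 and 44.0, while Gnas-eKO BCC replicate 2 lay at −13.4. SmoM2 and Gnas-eKO are named for Smo and Gnas, and these genes were read as a check. Gnas in the Gnas-eKO libraries was 178, 174 and 172 CPM in Con and 114, 89.4, 50.6 and 65.5 CPM in BCC, lower in every BCC library (log2 fold change −1.11, edgeR adjusted p = 0.0647). It was called lower in 1 of 7 refits with a library left out (edgeR adjusted p = 0.0345). The joint edgeR fit of all libraries (−1.12, adjusted p = 0.00022) and DESeq2 (−1.11, 0.00156) called it too. Gnas was called higher in SmoM2 (0.68, edgeR adjusted p = 5.49e-05) and PKI (0.25, 0.0311). The PKI call was lost without Con replicate 2 (edgeR adjusted p = 0.122) or 3 (0.101), without BCC replicate 1 (0.0837) or 2 (0.0717), and in a joint fit of all libraries (0.309). Smo rose in SmoM2, from 105, 93.8 and 110.5 CPM to 313, 302, 283 and 296 CPM. It was also called higher in PKI (0.53, edgeR adjusted p = 0.00187), and in Gnas-eKO every BCC library lay above all Con libraries (0.85, 0.0503). In Gnas-eKO Smo was called in 2 of 7 refits with a library left out (lowest edgeR adjusted p = 0.0178). The joint edgeR fit (0.84, adjusted p = 0.00018) and DESeq2 (0.84, 0.000738) called it as well. Of the Hedgehog target Gli1, Gnas-eKO BCC replicate 2 held 9.64 CPM, within the Con range of that model (4.76 to 9.98 CPM), and the other 3 BCC libraries held 234, 278 and 153 CPM. Of Ptch1, another Hedgehog target, the same library held 270.1 CPM, far above the 30.0 to 39.1 CPM of Con, and the other 3 held 926, 312 and 826 CPM. The 2 targets thus differed in that library. Member results for Gnas-eKO are also given without it where the call differs, and lists of other genes mainly as counts.

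In SmoM2 BCC, 6 members rose (Sox9, Lhx2, Foxi3, Foxe1, Gata3 and Runx1) and 2 fell (Hoxc13 and Dlx3), at an edgeR adjusted p under 0.05. Of all 16370 genes tested in SmoM2, 29.7% were called, 16.2% higher and 13.5% lower. In PKI BCC, 7 members rose (Lhx2, Foxi3, Foxe1, Msx1, Msx2, Dlx3 and Runx1) and 0 were called lower (edgeR quasi-likelihood test), against 18.7% and 15.8% of all genes (34.5% called in all). At an unadjusted p under 0.05 the same 7 passed, and DESeq2 also called 7 higher and 0 lower. In Gnas-eKO BCC only Foxi3 was called (1 member higher, 0 lower), where 1.63% of all genes were called, 1.46% higher and 0.165% lower. At an unadjusted p under 0.05, 6 members passed in Gnas-eKO, Hoxc13 being the only one with the lower level in BCC, and DESeq2 called 5 higher and 0 lower. Without BCC replicate 2 of Gnas-eKO, 5 members were called higher (Sox9, Lhx2, Foxi3, Foxe1 and Runx1) and 2 lower (Hoxc13 and Dlx3). Without Con replicate 1, 2 or 3 of that model, 0 members were called. Calls over all genes moved too, from 267 in the main fit to 1540 by DESeq2 and to 0 to 1910 with 1 library left out. The share of all genes at the unadjusted threshold was not computed. SmoM2 gave the 10 members a median log2 fold change of 0.93, Gnas-eKO 0.78 and PKI 1.15, and that of all genes tested was between −0.0012 and 0.020. Over the 9 members that did not pass the filter through BCC alone, the median was 0.41 in Gnas-eKO and 1.08 in PKI.

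**Figure D1:**
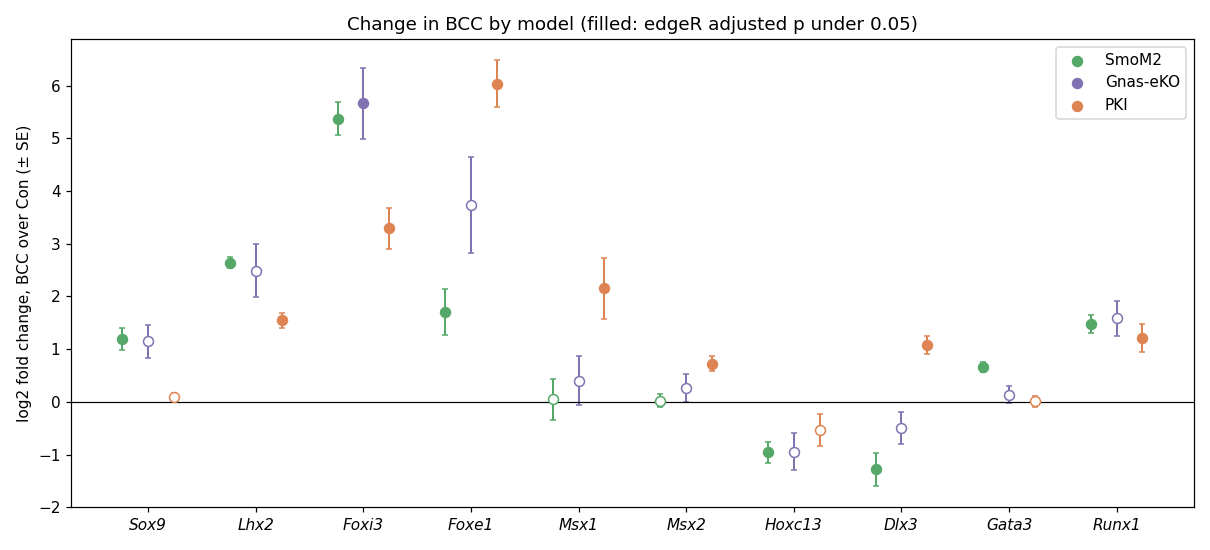
Log2 fold change of BCC over Con for the 10 members (vertical axis, points with SE bars) in SmoM2, Gnas-eKO and PKI, each from 4 BCC and 3 Con libraries; filled points have an edgeR adjusted p under 0.05. Foxi3 and Lhx2 lie above 0 in all models, from 3.29 to 5.66 and from 1.55 to 2.64, whereas Dlx3 lies at −1.28 in SmoM2 and at 1.08 in PKI.

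Groups that did not overlap were read against the same background. In SmoM2, all BCC libraries were above all Con libraries for 6 members and below them for 2, and this held for 19.7% and 19.2% of all genes. In Gnas-eKO, 3 members had all BCC libraries above all Con libraries (Lhx2, Foxi3 and Runx1, against 9.73% of all genes) and 0 below (10.1%). In PKI, 7 members had them above (22.4%) and 0 below (20.8%). Without Foxi3 in Gnas-eKO and Foxe1 in PKI, which passed the filter through BCC alone, 2 of 9 and 6 of 9 members lay above. These are small bulk samples, in which fewer cells of a type and less RNA per cell cannot be told apart.

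Before any tumour effect, the members differed widely in level. Per kilobase of annotated exon (RPKM), Hoxc13 had the highest mean of the members in all 3 Con groups. It stood at 44.5 ± 14.6 RPKM (SD, n = 3) in the SmoM2 group, 54.0 ± 7.32 in the Gnas-eKO group and 37.6 ± 16.1 in the PKI group. Its SD overlapped that of Gata3 in the SmoM2 (29.9 ± 2.68) and PKI (29.6 ± 3.85) groups, so their order was resolved only in Gnas-eKO. Gata3 (29.6 to 31.5 RPKM), Dlx3 (23.1 to 26.6 RPKM) and Sox9 (21.2 to 26.6 RPKM) came next, and in SmoM2 and PKI their order was not resolved, since neighbouring means lay within their SDs; in Gnas-eKO, Gata3 lay above the other pair. Lhx2 (8.77 to 9.78 RPKM), Msx2 (6.57 to 6.94 RPKM) and Runx1 (1.61 to 1.84 RPKM) followed, each apart from the gene before it by more than their SDs in all 3 Con groups. At the bottom lay Foxi3 (0.519 to 1.15 RPKM), Msx1 (0.470 to 0.581 RPKM) and Foxe1 (0.189 to 0.364 RPKM). The RPKM of Runx1 rests on an exon union of 12025 bases over several transcripts, and that of Foxi3 on 1281 annotated bases, so long or missing untranslated stretches enter these levels.

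In BCC the order changed. Lhx2 led in SmoM2 BCC with 54.1 ± 3.43 RPKM (SD, n = 4), followed by Sox9 (47.7 ± 9.65) and Gata3 (47.0 ± 4.63), which were not apart beyond their SDs. Foxi3 (30.2 ± 5.53 RPKM) and Hoxc13 (22.7 ± 2.74 RPKM) came next there, in an order that was not resolved. The lowest Foxi3 library held 24.7 RPKM and the highest Hoxc13 library 25.5 RPKM. In Gnas-eKO BCC the first places were held by Sox9 (51.5 ± 19.4 RPKM) and Lhx2 (49.0 ± 30.6 RPKM), with SDs too wide to order them. Dlx3 led in PKI BCC at 48.4 ± 3.20 RPKM, and Gata3, Lhx2, Sox9 and Hoxc13 lay together at 25.6 to 29.6 RPKM.

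**Figure D2:**
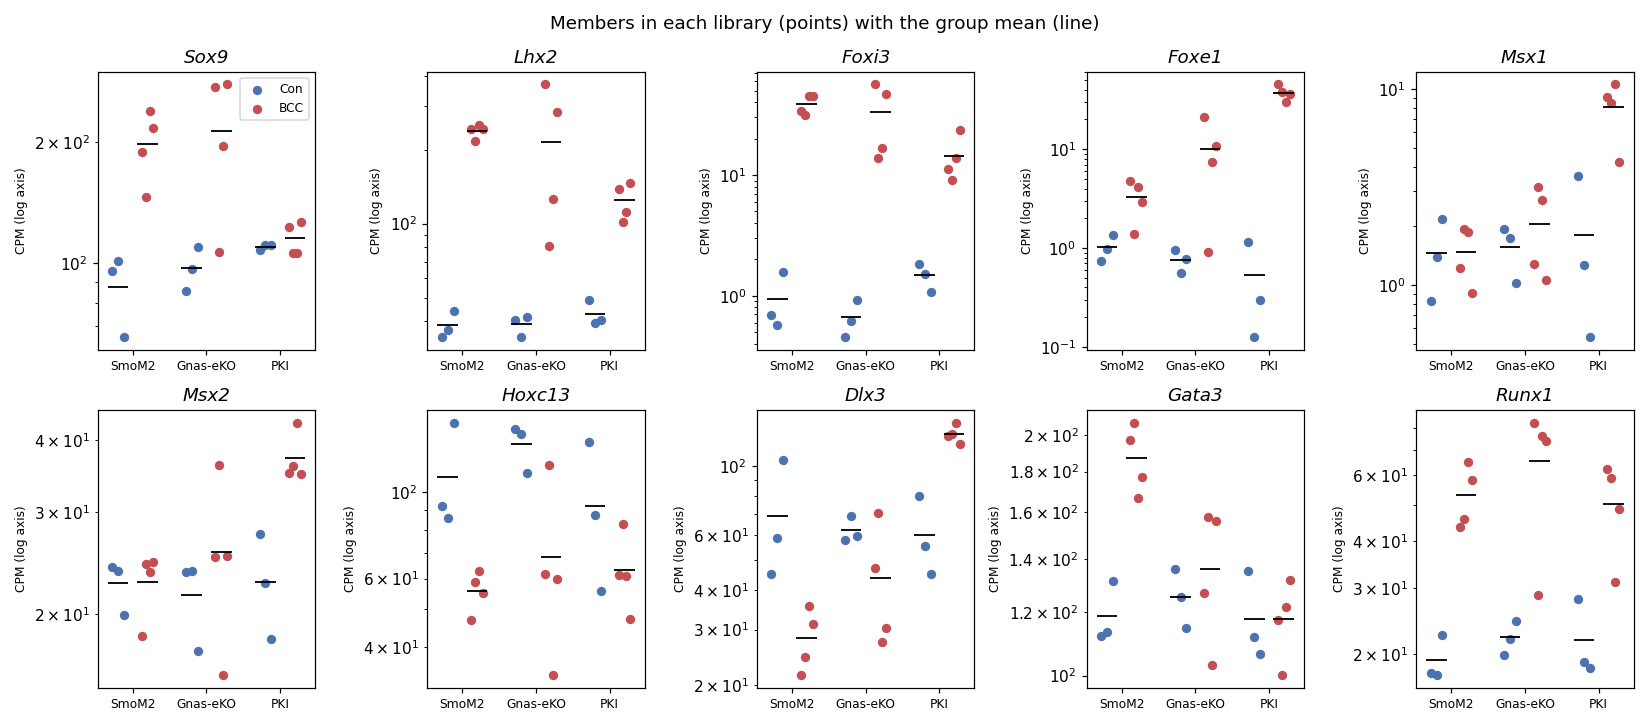
Level of each member in CPM (vertical log axis, its own range in each panel) in every Con (blue) and BCC (red) library of SmoM2, Gnas-eKO and PKI, with the group mean as a line. Foxi3 is below 2 CPM in all Con libraries and at 9.03 CPM or more in all BCC libraries, and Foxe1 is at 29.7 to 45.1 CPM in PKI BCC.

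Sox9 (ENSMUSG00000000567.5, GRCm38 chromosome 11, 112782224 to 112787760, plus strand) rose in SmoM2 and showed no called change in PKI. In SmoM2 it was 95.8, 101 and 65.8 CPM in Con and 189, 146, 239 and 216 CPM in BCC (log2 fold change 1.19, SE 0.21, edgeR adjusted p = 0.00497), with all BCC libraries above all Con libraries. In Gnas-eKO the Con libraries held 85.3, 97.0 and 109.9 CPM and the BCC libraries 273, 107, 195 and 277 CPM (log2 fold change 1.15, SE 0.31, edgeR adjusted p = 0.0988), and only BCC replicate 2 fell inside the Con range. Without that library the log2 fold change was 1.38 (edgeR adjusted p = 0.00369). PKI Con libraries held 108, 111 and 111 CPM and PKI BCC libraries 123, 106, 106 and 127 CPM, 2 of them below all Con libraries and 2 above (log2 fold change 0.08, SE 0.08, edgeR adjusted p = 0.468).

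Lhx2 (ENSMUSG00000000247.11, chromosome 2, 38339281 to 38369733, plus strand), a LIM homeodomain factor, was among the steadiest members in Con, at 34.6 to 49.0 CPM over the 9 libraries. SmoM2 BCC libraries held 242, 216, 251 and 242 CPM against 34.6, 36.8 and 44.3 CPM in Con (log2 fold change 2.64, SE 0.10, edgeR adjusted p = 2.81e-07), a fold of 6.23 with little spread. PKI BCC libraries held 138, 102, 112 and 147 CPM against 49.0, 39.4 and 40.6 CPM (log2 fold change 1.55, SE 0.14, edgeR adjusted p = 0.000185), a fold of 2.92. In both models no BCC library came near the Con range. The Gnas-eKO BCC libraries spread widely, at 368, 80.7, 126 and 285 CPM, all above the 40.3, 34.7 and 41.7 CPM of Con (log2 fold change 2.49, SE 0.50, edgeR adjusted p = 0.0510). This missed the threshold, and without BCC replicate 2 the log2 fold change was 2.77 (edgeR adjusted p = 0.00384).

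Runx1 (ENSMUSG00000022952.17, chromosome 16, 92601466 to 92826149, minus strand), a runt domain factor that also acts in blood cells, was above all Con libraries in every BCC library of its model. It went from 17.8, 17.6 and 22.5 CPM to 43.7, 45.9, 65.0 and 58.4 CPM in SmoM2 (log2 fold change 1.48, SE 0.16, edgeR adjusted p = 0.000192). In PKI it went from 28.0, 19.1 and 18.4 CPM to 62.4, 59.1, 31.2 and 48.7 CPM (log2 fold change 1.22, SE 0.26, edgeR adjusted p = 0.00994), where BCC replicate 3 was lowest and close to the highest Con library. Gnas-eKO gave 20.0, 22.0 and 24.6 CPM and 82.9, 28.8, 76.2 and 74.0 CPM (log2 fold change 1.59, SE 0.34, edgeR adjusted p = 0.0566), all BCC libraries being above Con and replicate 2 far below the other 3. Without it the log2 fold change was 1.84 (edgeR adjusted p = 0.000397). Markers of leukocytes moved with the PKI result: 5 of the 7 tested were called higher (Lyz2 passed the filter through BCC alone), and their summed level was 42.1 to 111 CPM in PKI Con and 249 to 467 CPM in PKI BCC. In SmoM2 1 of the 6 tested was called lower by edgeR, Itgam (−1.56, adjusted p = 0.0012), and 0 higher (0 at an unadjusted p under 0.05), with sums of 72.8 to 89.5 CPM in Con and 45.5 to 98.0 CPM in BCC. The part of leukocytes in the values of Runx1 was not tested.

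Foxi3 (ENSMUSG00000055874.6, chromosome 6, 70956531 to 70961066, plus strand), a forkhead factor of the placode, was the only member called higher in all 3 models. Its Gnas-eKO call is no support for this, since Foxi3 passed the filter there through the BCC libraries alone. Con libraries held 0.456 to 1.82 CPM. SmoM2 BCC held 33.6, 31.6, 44.8 and 44.8 CPM (log2 fold change 5.37, SE 0.32, edgeR adjusted p = 1.15e-05), a fold of 41.4 over its Con libraries (0.689, 0.575 and 1.57 CPM). PKI BCC held 11.3, 9.03, 13.8 and 23.7 CPM (log2 fold change 3.29, SE 0.39, edgeR adjusted p = 0.000605), a fold of 9.79 over 1.82, 1.52 and 1.08 CPM. Gnas-eKO BCC held 56.3, 14.0, 16.7 and 46.8 CPM against 0.456, 0.616 and 0.921 CPM in Con (log2 fold change 5.66, SE 0.67, edgeR adjusted p = 0.0143). Every BCC library of every model lay above every Con library, also Gnas-eKO BCC replicate 2. The Gnas-eKO call was lost when Con replicate 1, 2 or 3 was left out (edgeR adjusted p = 0.105 to 0.141), with log2 fold changes of 5.45, 5.61 and 5.97.

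Foxe1 (ENSMUSG00000070990.2, chromosome 4, 46343609 to 46346412, plus strand, 1 exon of 2804 bases), a forkhead factor best known from thyroid development, had its highest fold change in PKI. Its PKI Con libraries held 1.16, 0.127 and 0.301 CPM, the lowest from 2 counts, and the PKI BCC libraries 45.1, 38.0, 29.7 and 36.1 CPM (log2 fold change 6.04, SE 0.44, edgeR adjusted p = 0.000141). SmoM2 BCC reached only 4.72, 1.40, 4.13 and 2.92 CPM against 0.735, 0.977 and 1.35 CPM (log2 fold change 1.71, SE 0.43, edgeR adjusted p = 0.0145), with BCC replicate 2 just above the highest Con library. The SmoM2 call was lost without Con replicate 1 (log2 fold change 1.50, edgeR adjusted p = 0.0513) or 2 (1.68, 0.0577), and in a joint fit of all libraries (1.69, 0.113). In Gnas-eKO the BCC libraries held 21.3, 0.910, 7.36 and 10.9 CPM and Con 0.962, 0.560 and 0.768 CPM (log2 fold change 3.74, SE 0.91, edgeR adjusted p = 0.0803); replicate 2 stayed in the Con range, and without it the log2 fold change was 4.12 (edgeR adjusted p = 0.00216). Exons of the antisense gene Gm12446 overlap Foxe1. Gm12446 was at most 0.101 CPM in PKI Con and 3.68 to 4.22 CPM in PKI BCC, and since the use of strand in counting is not given, reads of the pair cannot be told apart.

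Msx1 (ENSMUSG00000048450.10, chromosome 5, 37820485 to 37824583, minus strand) and Msx2 (ENSMUSG00000021469.9, chromosome 13, 53466884 to 53473074, minus strand) are related homeodomain factors of the matrix, and both were called in PKI alone, the model in which leukocyte and T cell markers were also higher (values beside Runx1 and Gata3; their part in the Msx1 and Msx2 values was not tested). Msx1 was 3.59, 1.27 and 0.542 CPM in PKI Con and 9.11, 8.46, 10.5 and 4.22 CPM in PKI BCC (log2 fold change 2.15, SE 0.58, edgeR adjusted p = 0.0233). Con replicate 1 came close to the lowest BCC library, replicate 4. The call was lost without Con replicate 2 (edgeR adjusted p = 0.0823) or BCC replicate 1 (0.0579), 2 (0.0533) or 3 (0.0511). Msx2 stood at 27.5, 22.6 and 18.1 CPM in PKI Con and at 35.1, 36.1, 42.9 and 34.9 CPM in PKI BCC (log2 fold change 0.73, SE 0.14, edgeR adjusted p = 0.00412), a fold of 1.65 with no overlap. In the other models both overlapped between groups. Msx1 was 0.827 to 2.16 CPM in SmoM2 Con and 0.906 to 1.93 CPM in SmoM2 BCC, and 1.02 to 1.92 against 1.06 to 3.16 CPM in Gnas-eKO. Msx2 was 19.9 to 24.1 against 18.3 to 24.6 CPM in SmoM2, and 17.2 to 23.8 against 15.7 to 36.3 CPM in Gnas-eKO. Their log2 fold changes there were 0.02 to 0.41, with edgeR adjusted p from 0.631 to 0.948.

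Hoxc13 (ENSMUSG00000001655.6, chromosome 15, 102921103 to 102928814, plus strand), an activator of hair keratin genes, fell in SmoM2 from 92.0, 85.8 and 151 CPM to 46.9, 58.8, 62.7 and 55.1 CPM (log2 fold change −0.96, SE 0.21, edgeR adjusted p = 0.0112). All SmoM2 BCC libraries lay below all Con libraries, and Con replicate 3 stood highest; without it the log2 fold change was smaller in size, −0.66, and still called. Gnas-eKO gave 145, 141 and 112 CPM in Con and 61.7, 118, 33.9 and 59.9 CPM in BCC (log2 fold change −0.94, SE 0.35, edgeR adjusted p = 0.187), with replicate 2 inside the Con range and the other 3 below it. Without replicate 2 Hoxc13 was called lower, at −1.33 (edgeR adjusted p = 0.0114). In PKI, 134, 87.3 and 55.6 CPM in Con and 61.4, 83.0, 60.8 and 47.2 CPM in BCC overlapped (log2 fold change −0.54, SE 0.31, edgeR adjusted p = 0.219).

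Dlx3 (ENSMUSG00000001510.8, chromosome 11, 95120119 to 95125296, plus strand), a homeodomain factor of hair matrix and upper epidermis, was the only member called in opposite directions. SmoM2 BCC libraries held 21.4, 24.5, 35.6 and 31.2 CPM against 45.2, 58.6 and 104 CPM in Con (log2 fold change −1.28, SE 0.32, edgeR adjusted p = 0.0232). PKI BCC libraries held 124, 126, 137 and 117 CPM against 79.9, 55.3 and 45.1 CPM in Con (log2 fold change 1.08, SE 0.17, edgeR adjusted p = 0.00222). Neither model showed overlap: Dlx3 was below all Con libraries in SmoM2 BCC and above all in PKI BCC. The SmoM2 call was lost without BCC replicate 1 (−1.16, edgeR adjusted p = 0.0513) or 2 (−1.22, 0.0624) and with no filter on low counts (−1.27, 0.0531). Without SmoM2 Con replicate 3, the highest Con library, the value was −0.86 and still called. Gnas-eKO Con held 58.1, 69.1 and 59.8 CPM and BCC 47.1, 70.8, 27.4 and 30.3 CPM (log2 fold change −0.49, SE 0.30, edgeR adjusted p = 0.418), replicate 2 being highest of all 7. Without it Dlx3 was called lower there too, at −0.81 (edgeR adjusted p = 0.0476). Dlx4, its neighbour in the genome and named here after its values were seen, was 3.22 to 7.19 CPM in SmoM2 Con and 1.25 to 1.78 CPM in BCC (log2 fold change −1.72, edgeR adjusted p = 0.0018), and in PKI 4.15 to 5.51 against 4.88 to 7.05 CPM (0.37, 0.188).

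Gata3 (ENSMUSG00000015619.10, chromosome 2, 9857078 to 9890034, minus strand), a zinc finger factor of the inner root sheath and of T cells, had the narrowest Con range of the members as a ratio, the highest of 9 libraries (136 CPM) being 1.28 times the lowest (107 CPM). It rose in SmoM2 BCC, to 197, 207, 167 and 177 CPM from 112, 113 and 131 CPM (log2 fold change 0.67, SE 0.09, edgeR adjusted p = 0.000595), without overlap. PKI BCC libraries held 117, 100.1, 122 and 132 CPM against 135, 112 and 107 CPM in Con (log2 fold change 0.01, SE 0.11, edgeR adjusted p = 0.947). Gnas-eKO BCC libraries held 127, 158, 103 and 156 CPM against 136, 125 and 115 CPM (log2 fold change 0.14, SE 0.16, edgeR adjusted p = 0.702). In both of these models the groups overlapped. T cell markers summed to 17.1 to 38.6 CPM in PKI BCC and 3.80 to 9.66 CPM in PKI Con, 6 of the 6 tested being called higher (4 of them passed the filter through BCC alone). In SmoM2, 1 of 4 T cell markers tested was called higher (Trac, which passed the filter through BCC alone), and the sums were 3.52 to 6.41 CPM in BCC and 2.43 to 4.54 CPM in Con. The part of T cells in the values of Gata3 was not tested in any model. The overlapping gene 9230102O04Rik, on the same strand as Gata3, reached at most 0.378 CPM in any library.

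**Figure D3:**
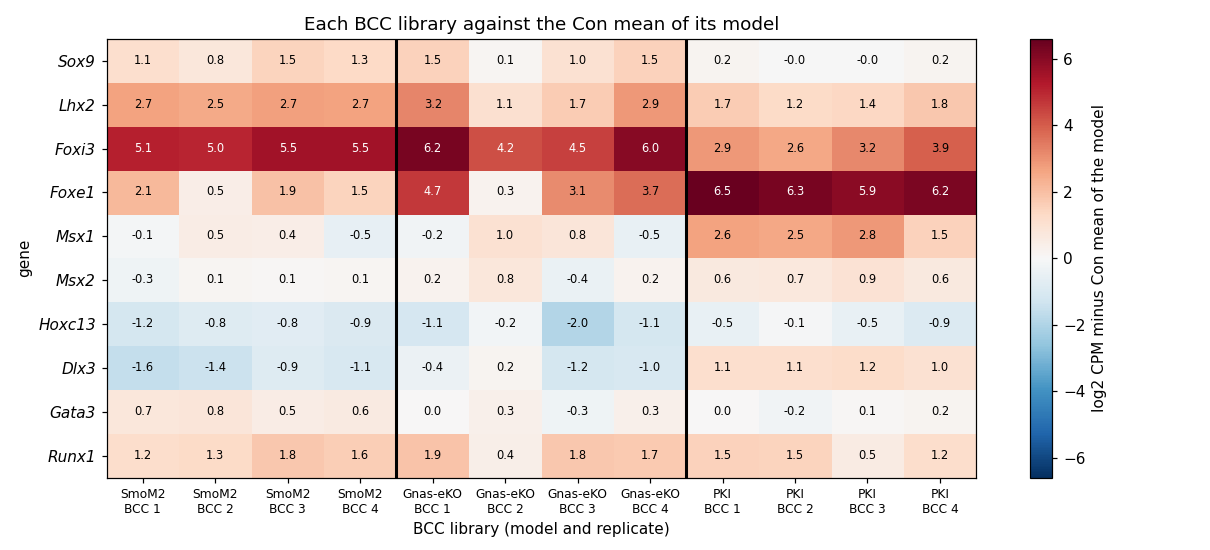
Log2 CPM of each BCC library (columns: model and replicate) minus the Con mean of its model, for each member (rows; red above, blue below, value printed in the cell). Replicate 2 of Gnas-eKO has Foxi3 at 4.2 and Lhx2 at 1.1 but Sox9 at 0.1 and Foxe1 at 0.3, and Dlx3 is below 0 in the SmoM2 libraries and above 0 in the PKI libraries.

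Spread within groups was widest in Gnas-eKO BCC. Its coefficient of variation was the largest of the 3 BCC groups for all 10 members, from 19.3% for Gata3 to 84.3% for Foxe1. In SmoM2 BCC it ran from 6.33% for Lhx2 to 44.6% for Foxe1, and in PKI BCC from 6.61% for Dlx3 to 44.9% for Foxi3. Library by library, Gnas-eKO BCC replicate 2 had 7 of the 10 members above all Con libraries of its model and 0 below, where 27.1% of all genes tested lay above and 28.9% below; Foxi3, Lhx2, Runx1, Msx1, Msx2, Dlx3 and Gata3 were the 7. Gnas-eKO BCC replicate 3 went the other way for several of these, with 6 members above Con and 4 below (40.0% and 39.7% of all genes), the latter being Msx2, Hoxc13, Dlx3 and Gata3. Fibroblast markers also varied over these libraries, with a summed level of 93.3 to 578 CPM in Gnas-eKO BCC and 16.0 to 27.4 CPM in Gnas-eKO Con. They were 388 to 524 CPM in SmoM2 BCC (17.2 to 39.8 CPM in Con) and 84.4 to 145 CPM in PKI BCC (15.8 to 43.4 CPM in Con). Dcn made up most of these sums, at a mean of 440 CPM in SmoM2 BCC and 88.4 CPM in PKI BCC. In SmoM2 edgeR called 2 of 6 higher (Dcn and Col1a2) and 0 lower. Col1a1 (0.36, adjusted p = 0.575), Col3a1 (−0.07, 0.955), Pdgfra (0.73, 0.274) and Lum (2.18, 0.0778) were not called there. Gnas-eKO had 1 of 6 higher and PKI 3 of 6, with 0 lower in both. The part of fibroblasts in the members' values was not tested. Keratinocyte markers (Krt5, Krt14, Krt1 and Krt10) differed between the groups as well. Their sum was 46667 to 63473 CPM in SmoM2 Con and 30554 to 45811 CPM in SmoM2 BCC, without overlap, and edgeR called 3 of 4 lower there (Krt14 at −1.20, adjusted p = 3.65e-05). Gnas-eKO sums did not overlap either, at 48475 to 59673 CPM in Con and 22310 to 41783 CPM in BCC, though 0 of 4 were called by edgeR (2 lower at an unadjusted p under 0.05). PKI sums overlapped, at 42701 to 59825 CPM in Con and 39360 to 67201 CPM in BCC, with Krt1 called higher and Krt5 lower. The part of keratinocytes in the members' values was not tested, and the dermal papilla markers Corin, Sox2 and Rspo3 each had a mean under 1 CPM in all groups.

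Whether the tumour effect differed between models was tested as the difference of log2 fold changes (edgeR's quasi-likelihood test over 14 libraries). PKI differed from SmoM2 in 7 members (edgeR adjusted p under 0.05), where 24.9% of all 17261 genes tested differed (12.6% with the higher effect in PKI and 12.3% with the lower). The effect in PKI minus that in SmoM2 was higher for Foxe1, at 4.33 (SE 0.73, edgeR adjusted p = 0.00130), for Dlx3, at 2.36 (SE 0.39, edgeR adjusted p = 0.00128), and for Msx2, at 0.70 (SE 0.20, edgeR adjusted p = 0.0193). These 3 members thus had the more positive tumour effect in PKI. It was lower for Foxi3, at −2.08 (SE 0.57, edgeR adjusted p = 0.0176), Sox9, at −1.10 (SE 0.22, edgeR adjusted p = 0.00360), Lhx2, at −1.09 (SE 0.18, edgeR adjusted p = 0.000806), and Gata3, at −0.66 (SE 0.15, edgeR adjusted p = 0.00716). Msx1 missed the threshold at 2.10 (SE 0.74, edgeR adjusted p = 0.0532), and so did Hoxc13, at 0.42 (SE 0.41, edgeR adjusted p = 0.489), and Runx1, at −0.26 (SE 0.33, edgeR adjusted p = 0.603). The Foxi3 difference was lost without SmoM2 Con replicate 1 (edgeR adjusted p = 0.0538) or PKI Con replicate 1 (0.0657), and that of Msx2 without PKI Con replicate 3 (0.0507). Lhx2 (0.129), Foxi3 (0.0643) and Msx2 (0.100) also missed it in a joint fit of all libraries, which called 4 members. Msx1 passed without SmoM2 Con replicate 1 (edgeR adjusted p = 0.0421), PKI Con replicate 1 (0.00493) or PKI BCC replicate 4 (0.0298).

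**Figure D4:**
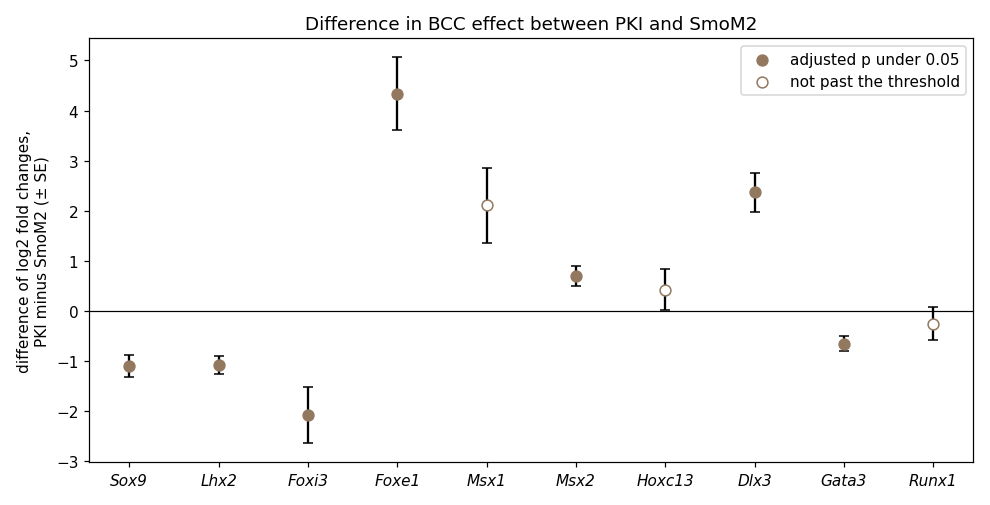
Difference of the log2 fold changes of BCC over Con, PKI minus SmoM2 (vertical axis, points with SE bars), for each member over 14 libraries; filled points have an edgeR adjusted p under 0.05. Foxe1 (4.33) and Dlx3 (2.36) stand highest among the called members, and Foxi3 (−2.08) lowest.

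PKI against Gnas-eKO differed in 1 member, Dlx3, at 1.57 (SE 0.39, edgeR adjusted p = 0.0245), where 9.06% of all genes differed by edgeR's test (4.49% higher, 4.57% lower). That call was lost without Gnas-eKO Con replicate 2 (edgeR adjusted p = 0.0669) or PKI Con replicate 2 (0.0637) or 3 (0.0693). Sox9, at −1.06 (SE 0.34, edgeR adjusted p = 0.0670), and Foxi3, at −2.37 (SE 0.80, edgeR adjusted p = 0.0822), missed the threshold. Without Gnas-eKO BCC replicate 2 both passed, Sox9 at −1.29 (edgeR adjusted p = 0.00143) and Foxi3 at −2.63 (0.031), and 3 members were called in all. Foxi3 also passed without Gnas-eKO BCC replicate 3 (0.0494) or PKI BCC replicate 4 (0.0455), and Msx1 without PKI Con replicate 1 (0.0397). Gnas-eKO against SmoM2 gave 0 called members by edgeR, with 0.175% of all genes called (0.0758% higher, 0.0991% lower), and 1 member at an unadjusted p under 0.05, Gata3, at −0.53 (SE 0.19, edgeR adjusted p = 0.422). The SE of that difference was 0.81 for Foxi3 and 1.07 for Foxe1, so differences of that size were not resolved.

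Other genes of the follicle were counted in lists, to be read against the share of all genes that edgeR called: SmoM2 29.7%, Gnas-eKO 1.63% and PKI 34.5%. Of 18 further follicle transcription factors, all tested, 11 were called higher and 4 lower in SmoM2 BCC by edgeR, with a median log2 fold change of 0.47 (all genes, 0.00054). The 11 were Tbx1, Nfatc1, Nfib, Foxc1, Tcf7l1, Tcf7l2, Lef1, Sox4, Cux1, Vdr and Hr, and the 4 were Foxn1, Foxq1, Sox21 and Ovol1. Sox4 was highest (log2 fold change 2.48, SE 0.21, edgeR adjusted p = 0.000154) and Foxn1, the factor lost in nude mice, lowest (−1.59, SE 0.18, 0.000311). Without SmoM2 Con replicate 2, 7 were higher. In PKI, 5 were higher (Lef1, Sox4, Cux1, Hr and Egr2) and 1 lower (Foxq1), together 33.3% of the list and near the background of that model, with a median of 0.06. Lef1, which carries Wnt signals to the genome, went from 1.77 to 5.36 CPM in PKI Con to 24.7 to 31.0 CPM in PKI BCC (log2 fold change 3.07). Foxq1, a factor of the hair medulla, was lowest (−1.33, SE 0.11, edgeR adjusted p = 9.97e-05). Without PKI Con replicate 3 or BCC replicate 3, 2 were lower. In Gnas-eKO 1 was called, Sox4 (2.40, SE 0.47, edgeR adjusted p = 0.0489; 0.0845 with no filter on low counts), and Foxq1 had the lowest value (−1.39, 0.222); the median was 0.49. Without Gnas-eKO BCC replicate 2, 7 were higher and 3 lower, and with any other Gnas-eKO library left out, 0 were called by edgeR. Foxq1 was among those 3 (edgeR adjusted p = 0.00634), and with 1 library left out its value ran from −2.17 to −1.08.

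Among placode and signalling genes, 8 of 11 were tested in SmoM2 and Gnas-eKO and 9 in PKI. In SmoM2 2 rose (Lgr5 and Edar) and 3 fell (Bmp4, Wnt10a and Wnt10b), with a median log2 fold change of −0.0075. Lgr5, a stem cell marker and Wnt pathway receptor, was highest (2.99, SE 0.18, edgeR adjusted p = 1.12e-05), and Bmp4 lowest (−1.30, SE 0.21, 0.0015). In PKI 3 rose (Edar, Bmp4 and Lgr5) and 2 fell (Bmp2 and Wnt10b), with a median of 0.09. Edar, the receptor of ectodysplasin, was highest there (2.14, SE 0.25, edgeR adjusted p = 0.000446), and Bmp2 lowest (−1.14, SE 0.13, 0.000398). Without PKI Con replicate 3, 2 were higher and 1 lower. Bmp4, like Dlx3, was thus called lower in SmoM2 and higher in PKI (1.02, SE 0.20, edgeR adjusted p = 0.00454). In Gnas-eKO 1 was called, Lgr5 (2.87, SE 0.43, edgeR adjusted p = 0.0263), the lowest value being that of Bmp4 (−0.68, 0.385), and the median 0.05. Without Gnas-eKO BCC replicate 2, 2 were higher and 2 lower, and with any other Gnas-eKO library left out 0 were called. Bmp4 was 1 of the 2 lower (edgeR adjusted p = 0.0422), and with 1 library left out its value ran from −1.12 to −0.42.

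Outer root sheath and bulge markers, 7 of 7 tested, include Lgr5 again. SmoM2 had 2 higher (Lgr5 and Krt17) and 1 lower (Krt24), and PKI 3 higher (Krt75, Krt17 and Lgr5) and 3 lower (Krt24, Krt15 and Cd34), by edgeR. Krt75, a keratin of the companion layer, went from 12.1 to 27.8 CPM in PKI Con to 171 to 237 CPM in PKI BCC (log2 fold change 3.49, SE 0.30, edgeR adjusted p = 0.000323), and in SmoM2 its value was −0.24 (0.668). Krt24 was lowest in each model, at −1.58 in SmoM2 (edgeR adjusted p = 0.00422), −2.91 in PKI (0.00847) and −1.05 in Gnas-eKO (0.39). SmoM2 had a median of 0.05, Gnas-eKO of 1.02 and PKI of −0.22. In Gnas-eKO 1 was called higher, Lgr5; without BCC replicate 2 there were 3, and without any other library 0.

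Inner root sheath genes, the products of the layer that GATA3 directs, rose together in PKI. Of 9 genes, 8 were tested in each model, and all 8 were called higher in PKI BCC by edgeR, with a median log2 fold change of 4.34. Krt26 and Krt72 passed the filter on low counts through PKI BCC alone; of the other 6, 6 were called and the median was 4.34. Their summed level was 31.8 to 252 CPM in PKI Con and 1963 to 2473 CPM in PKI BCC. Krt26 was highest, from at most 0.658 CPM in PKI Con to 45.7 to 75.4 CPM in PKI BCC (log2 fold change 7.91, SE 0.59, edgeR adjusted p = 0.00022), and Krt25 lowest, from 3.92 to 58.7 CPM to 290 to 398 CPM (3.91, SE 1.09, 0.0393). With 1 PKI library left out Krt26 was always called, but its log2 fold change ran from 7.37 to 13.1, the Con level being near 0. The call of Krt25 was lost with any PKI library left out except Con replicate 1 (edgeR adjusted p = 0.0618 to 0.0932). Its log2 fold change was 6.36 without Con replicate 1 and at least 3.43 in the other refits. It was also lost with no filter on low counts (3.92, 0.0702). Without PKI BCC replicate 1, 5 of the 8 were called. Gata3 in the same libraries did not pass the test. Melanocyte markers were lower in these libraries, 4 of 5 by edgeR's test, with sums of 153 to 201 CPM in PKI Con and 72.2 to 117 CPM in PKI BCC, and of 3 sebocyte markers Mc5r was called lower (−1.40, edgeR adjusted p = 0.0407). Their part in the PKI values was not tested. In SmoM2 2 melanocyte markers were called lower, Tyr and Mlana, with overlapping sums of 115 to 204 CPM in Con and 109 to 159 CPM in BCC. In SmoM2 and Gnas-eKO 0 of 8 were called by edgeR, with medians of −1.38 and −0.19. At an unadjusted p under 0.05, 2 were lower in SmoM2 and 0 passed in Gnas-eKO, and DESeq2 called 1 lower in SmoM2 and 0 in Gnas-eKO. The values ran from −1.64 (Krt73, edgeR adjusted p = 0.173) to −0.33 (Krt26, 0.818) in SmoM2 and from −0.39 (Krt73, 0.739) to 0.95 (Krt26, 0.706) in Gnas-eKO. With 1 Gnas-eKO library left out, Krt26 ran from 0.42 to 3.92 over the 5 refits that gave a value, and was called in 0 of them. Without SmoM2 Con replicate 1 or BCC replicate 3, 1 was called lower in SmoM2.

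Hair shaft genes, 13 of 14 tested, include the keratins that HOXC13 activates. Krt36 and Krt84 are also keratins of the scales of mouse tail epidermis, the tissue sampled here, and their mean levels in Con were 8817 to 18930 CPM, against 0.548 to 31.2 CPM for the other 11, so their values cannot be assigned to the hair shaft. Over the other 11, in a split made after these levels were seen, edgeR called 1 lower in SmoM2 (9.09%, median −1.81) and 4 higher and 0 lower in PKI (36.4%, median 1.26). In SmoM2 3 fell by edgeR's test (Krt34, Krt36 and Krt84) and 0 rose, a called share of 23.1% and below the background (0 higher and 9 lower at an unadjusted p under 0.05; 0 and 6 by DESeq2), with a median log2 fold change of −1.85. Krt84 went from 12302 to 28873 CPM in SmoM2 Con to 1368 to 3400 CPM in BCC (−2.99, SE 0.42, edgeR adjusted p = 0.00331), and Krt32 was highest at −0.34 (0.4). This count depended on single libraries: 10 genes were lower without SmoM2 BCC replicate 3, 6 without BCC replicate 1, 5 without Con replicate 1, and 2 without Con replicate 2 or BCC replicate 4, while the joint fit of all libraries called 0. PKI had 4 higher (Krt82, Krt35, Dsg4 and Krt32) and 2 lower (Krt84 and Krt36), with a median of 1.00. Of the 13, 4 passed the filter through PKI BCC alone, Krt82 among them; the other 9 had 3 higher and 2 lower, with a median of 0.88. Krt82, a keratin of the shaft cuticle, was highest (3.71, SE 0.85, edgeR adjusted p = 0.0138), and Krt84 lowest (−2.48, SE 0.56, 0.0184). The PKI call of Krt84 was lost without Con replicate 1 (edgeR adjusted p = 0.0516) or BCC replicate 1 (0.0638), and that of Krt82 without Con replicate 3 (0.0532). Without PKI Con replicate 1, 11 were higher and 0 lower; without Con replicate 3, 2 were higher; without BCC replicate 1, or in the joint fit, 0 were lower. In Gnas-eKO 0 were called by edgeR or DESeq2 and 6 were lower at an unadjusted p under 0.05, with values from −2.38 (Krt33b, adjusted p = 0.17) to −0.20 (Krt32, 0.784), with a median of −2.05; without BCC replicate 2, 3 were lower.

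Relatives of the members in their own gene families were counted last. Of 23, SmoM2 allowed 11 to be tested, Gnas-eKO 12 and PKI 13. SmoM2 had 3 lower by edgeR (Dlx4, Dlx5 and Dlx6) and 0 higher, 27.3% of those tested and near the background, with a median log2 fold change of −0.02. At an unadjusted p under 0.05, and by DESeq2, 1 was higher and 3 lower. Dlx6 passed the filter through Con alone, and of the other 10 tested 20.0% were called, all lower. Dlx6 was lowest (−2.02, SE 0.35, edgeR adjusted p = 0.00211) and Dlx1 highest (0.62, 0.0595). Without SmoM2 Con replicate 3, 1 was higher. In PKI, Hoxd13 and Gata2 passed the filter through BCC alone and Dlx6 through Con alone. Of the other 10 tested, 4 were called higher (Dlx1, Dlx2, Runx2 and Runx3) and 2 lower (Dlx5 and Gata6), with a median of 0.19; with those 3 counted there were 6 higher and 3 lower. Hoxd13, a relative of Hoxc13 known from digit patterning, was at most 0.455 CPM in PKI Con and 6.58 to 14.7 CPM in PKI BCC (log2 fold change 5.56, SE 0.51, edgeR adjusted p = 0.0002). Dlx6 was lowest in PKI too (−3.00, SE 0.54, 0.00311). Hoxd13 and Gata2 were tested in PKI alone, since they failed the filter on low counts elsewhere. In Gnas-eKO 0 were called by edgeR, against 1 higher and 2 lower at an unadjusted p under 0.05 and 1 of each by DESeq2. Values ran from −1.68 (Dlx4, edgeR adjusted p = 0.21) to 1.38 (Runx2, 0.152), with a median of 0.23. Without BCC replicate 2, 1 was higher, Runx2 (edgeR adjusted p = 0.0204), and 3 lower, Dlx4 among them (0.00363). With 1 library left out Dlx4 ran from −2.76 to −1.36 and Runx2 from 1.14 to 1.75.

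**Figure D5:**
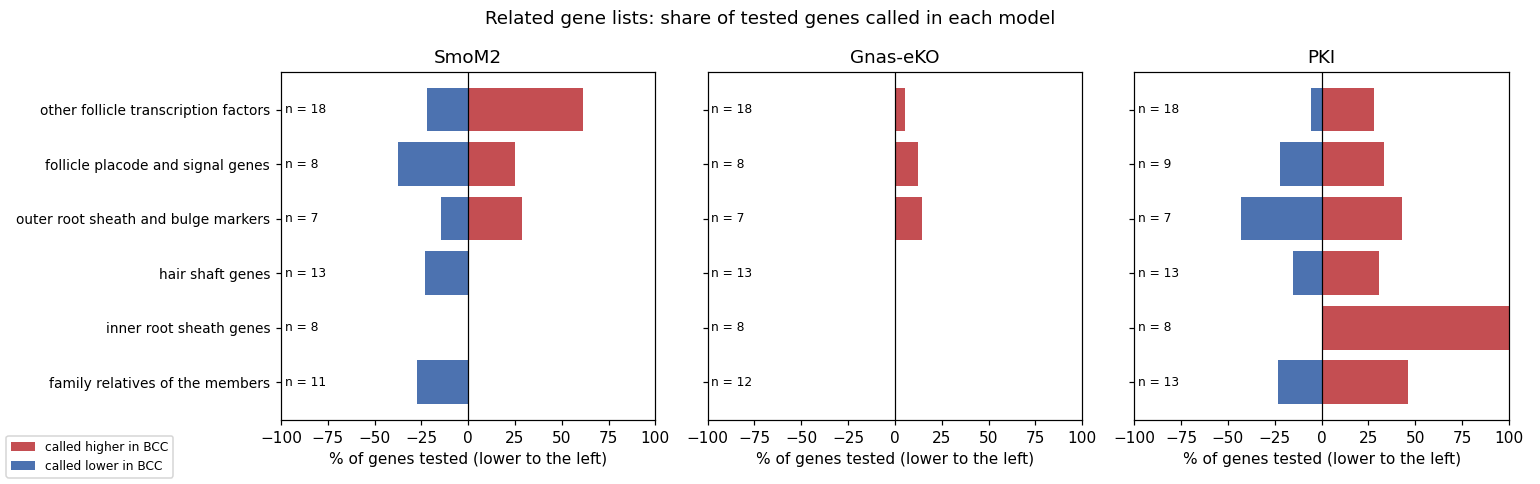
Share of the genes tested in each related list (rows, with the number tested) that edgeR called higher (red, to the right) or lower (blue, to the left) in BCC, in percent, for SmoM2, Gnas-eKO and PKI. Inner root sheath genes reach 8 of 8 in PKI and 0 of 8 in the other models, and other follicle transcription factors reach 11 of 18 in SmoM2.

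Genes with the most similar pattern were found over the 6 group means of log2 CPM, each gene centred on its own mean, among 14675 genes. The measure is the root-mean-square difference, on the log2 scale, and it rests on 6 points only. Closest to Sox9 were Il11ra1 (0.05) and Accs (0.08), to Lhx2 Pakap (0.07) and Mex3a (0.10), and to Runx1 Prss12 (0.07) and Kirrel (0.09). Foxi3 was matched less closely, by Prss35 (0.28) and Colec12 (0.30), and Foxe1 by Krt16 (0.33) and Hsd11b2 (0.49). Krt16 is a keratin of stressed and growing epidermis. For Msx1 the nearest were Itgb7 (0.11) and Grap2 (0.12), both known from lymphocytes, and for Msx2 Blmh and Bdh1 (0.05 each). Hoxc13 had Grtp1 (0.11) and Lancl1 (0.14), Dlx3 Gm35439 (0.12) and Gjb2 (0.14), and Gata3 Espn (0.04) and Med23 (0.05). None of these was itself a member.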

How the data were processed

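The authors deposited 1 table of estimated counts per gene and 1 table of normalized signal values for the same 23713 genes in 21 libraries. Per the submitters' processing notes, reads were handled with bcl2fastq 2.20, cutadapt 1.18, STAR 2.7.0f and Partek on build mm10; annotation and use of strand in counting are not given in the sources used here. Of the deposited estimated counts 32.4% were not whole, and they were rounded. The authors' normalized signal equals each deposited count times 1 factor per library, plus an offset of 0.001, and it was used only with limma 3.58.1 (log2 of value plus 1).

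Within each model, BCC was compared with Con by edgeR 4.0.16 (R 4.3.3): filterByExpr, TMM, robust quasi-likelihood test, Benjamini-Hochberg adjustment over all genes and a threshold of 0.05. SE was taken as the size of the log2 fold change over the root of F. Differences between models came from an interaction term over 14 libraries. CPM used TMM-scaled sizes and RPKM GENCODE M21 exon unions. Alternatives were DESeq2 1.42.0 (size factors and Wald test), no filter, a joint fit of all libraries, limma, a replicate block and leaving out each library. The edgeR fit was also run on simulated counts with the same dispersion for every gene in both groups. Those counts lacked the wide spread of Gnas-eKO BCC, so they do not cover that group. Every member is named, with Dlx4 and the highest and lowest gene of each list. Members and lists were chosen with earlier results of these data known. No 2 libraries of a group were near-copies (chi-square over degrees of freedom at least 8.33). Intervals were not computed, and the 3-count floor covers counting error only.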

Additional observations from a re-analysis of the deposited data

Results flagged for a closer look

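In each of 3 libraries, 1 member stood apart from the other BCC libraries of its group. Msx2 was 18.3 CPM in SmoM2 BCC replicate 1 and 23.6 to 24.6 CPM in the other 3. It was 42.9 CPM in PKI BCC replicate 3 and 34.9 to 36.1 CPM in the others. Runx1 was 28.8 CPM in Gnas-eKO BCC replicate 2, against 74.0 to 82.9 CPM. Dixon's test was passed in 3 of 30 member and group combinations, and chance gives about 1 in 20.

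The tumour effect differed between models in 8 comparisons by edgeR's test of the difference. PKI minus SmoM2 was 4.33 for Foxe1, 2.36 for Dlx3, 0.70 for Msx2, −0.66 for Gata3, −1.09 for Lhx2, −1.10 for Sox9 and −2.08 for Foxi3 on the log2 scale. PKI minus Gnas-eKO was 1.57 for Dlx3. Model, batch and day cannot be told apart in any of them.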

How the results depend on the processing

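Of 16 calls of a member within a model, 11 passed in every refit, and of 8 differences between models 3 did. With no filter on low counts 1 member was lower in SmoM2. The joint fit of all libraries and DESeq2 each called 5 members higher in Gnas-eKO, and the joint fit called 4 differences for PKI against SmoM2 and 2 for PKI against Gnas-eKO. The joint fit also turned the sign of Gata3 in PKI (−0.00083), which was not called. The cause of these shifts was not tested.

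Leaving out 1 library gave 1 to 2 members lower in SmoM2, 0 to 5 higher and 0 to 2 lower in Gnas-eKO, and 0 to 3 differences for PKI against Gnas-eKO. Values near 0 that were not called changed sign: in SmoM2 Msx1 ran from −0.25 to 0.45, Msx2 from −0.060 to 0.12 and Krt26 from −0.90 to 0.55, and in PKI Gata3 from −0.055 to 0.12. For Gnas-eKO minus SmoM2, Sox9 ran from −0.18 to 0.19, Lhx2 from −0.54 to 0.12, Foxi3 from −0.26 to 0.61, Msx1 from −0.033 to 0.65, Hoxc13 from −0.38 to 0.24 and Runx1 from −0.026 to 0.35. Krt26 had no value in Gnas-eKO without BCC replicate 2 or 3. Over all genes, edgeR called 267 in Gnas-eKO, 2644 in the joint fit, 1540 with DESeq2 and 0 to 1910 with a library left out.

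Replicate numbers did not pair the samples: same-numbered deviations correlated at −0.17 to −0.10 in SmoM2, 0.06 to 0.21 in Gnas-eKO and −0.02 to 0.32 in PKI. With the replicate number as a block, edgeR called 135 genes in Gnas-eKO, Sox9 in SmoM2 was 1.13 (edgeR adjusted p = 0.0671), and uncalled values turned sign for Msx2 (−0.023) and Krt26 (8.49e-05) in SmoM2, Gata3 in PKI (−0.043), and Foxi3 (−0.13), Hoxc13 (−0.13) and Runx1 (−0.017) in Gnas-eKO minus SmoM2. For PKI minus SmoM2 the block lost Sox9 (0.0613) and Msx2 (0.0539) and gained Msx1 (2.35, 0.0437). Of the 8 inner root sheath genes the block left 2 called higher in PKI, losing Krt25 (0.121), and called 5 lower in SmoM2, with Krt73 at −1.55 (0.00208). Low counts limit Foxe1, with 2 to 25 counts in Con libraries.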
